A study of Mus musculus with 4 samples.

Results

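The Srsf genes encode the classical SR proteins, a family of splicing factors. The 10 members described here, Srsf1 to Srsf7, Srsf9, Srsf10 and Srsf11, were taken by symbol from raw read counts for 24421 mouse genes. All 10 were found and passed the filter on low counts. Srsf12, with 0 to 36 counts per library, was not among the members and is counted below with the SR-related proteins. RNA was sequenced from LSK cells, the lineage-negative, Sca1-positive and cKit-positive bone marrow fraction in which stem cells and early progenitors are found. There were 2 libraries from control littermates of wild-type genotype (WT) and 2 from Zfp521-/- mice (KO). Zfp521 is a zinc finger transcription cofactor. The knockout allele, the age of the mice and any restriction of the deletion to a cell type were not stated in the labels. The 2 RNA samples of a genotype are called independent in the labels but are not tied to separate animals. The p-values reflect only how far these samples differ, which for KO may be technical only. The 2 WT samples had 160613 and 606 counts of Xist, the transcript of the inactive X chromosome. They were therefore not repeats of the same RNA sample.

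SR proteins carry an RNA recognition motif, which binds short exonic sequences, and a tail rich in arginine and serine (the RS domain), which contacts other splicing factors and helps recruit the U1 and U2 small nuclear ribonucleoproteins to exons. Kinases of the SRPK and CLK families phosphorylate the tail, and the import receptor Tnpo3 carries the proteins into the nucleus. Most SR genes limit their own level by splicing in, or retaining, sequence that sends their transcript to nonsense-mediated decay (NMD). In blood formation the family is best known through SRSF2, a recurrent target of mutation in human myelodysplasia.

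Library totals ranged from 17787425 to 29863594 counts. Levels are given as CPM, read counts scaled to library size with TMM factors. Zfp521 itself was read at 56.1 and 57.5 CPM in the WT libraries and 13.9 and 10.9 CPM in the KO libraries, a log2 fold change of -2.19 (edgeR adjusted p = 0.000491). Of 8 stem and progenitor genes tested, which include the sort genes, 1 was lower in KO and 0 higher (median 0.26 on the log2 scale). Among all genes tested 3.01% were lower and 3.77% higher. The one lower was Cd34, with a WT mean of 497 ± 2.68 CPM and a KO mean of 325 ± 61.9 CPM (SD, n = 2 each; log2 fold change -0.61, edgeR adjusted p = 0.0408). Cd48 (-0.60, adjusted p = 0.106) and Flt3 (0.40, adjusted p = 0.104) did not pass. The sort gene Kit ranged from 617 to 708 CPM and Ly6a, which encodes Sca1, from 36.9 to 67.0 CPM over the 4 libraries. Transcripts of the T cell receptor complex were near the floor, with 0 to 5 counts of Cd3g and 2 to 22 of Cd3e per library. Among other T and NK cell markers, Cd3d (5 to 14 counts), Cd8a (16 to 36) and Ncr1 (0 to 3) were also low. Read well above that were Cd4 (487 to 804 counts), Lck (461 to 834), Nkg7 (468 to 1590) and Klrb1c (134 to 514). WT replicate 2 had 606 counts of Xist, the transcript of the inactive X chromosome, against 160613 to 230977 in the other libraries. The ribosomal RNA precursor Rn45s took 9.37% of counts in KO replicate 2 and 14.6% to 15.7% in the others. The part of these library differences in the results below was not tested, apart from leaving out each library and leaving out Rn45s.

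The 10 genes lie on 7 chromosomes. RefSeq promoter windows, 250 bases before to 50 bases after the annotated start site on GRCm38.p6, were found for all of them. They are shown for the 3 genes that fell in KO, Srsf2, Srsf3 and Srsf10, and for Srsf5, which was read as deeply as Srsf2 and Srsf3 and whose groups overlapped. The Srsf2 window is chr11:116853045-116853344 on the minus strand, that of Srsf3 chr17:29032410-29032709 on the plus strand, that of Srsf10 chr4:135855821-135856120 on the plus strand and that of Srsf5 chr12:80945249-80945548 on the plus strand. Capitals mark matches, on either strand, to any of the 8 motifs listed after the sequences.
Srsf2: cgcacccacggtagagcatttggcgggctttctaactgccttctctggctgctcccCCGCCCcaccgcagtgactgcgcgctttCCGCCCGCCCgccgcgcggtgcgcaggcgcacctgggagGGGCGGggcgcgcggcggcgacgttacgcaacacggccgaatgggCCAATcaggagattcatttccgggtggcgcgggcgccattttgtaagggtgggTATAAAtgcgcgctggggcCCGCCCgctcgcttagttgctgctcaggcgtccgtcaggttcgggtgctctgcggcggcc
Srsf3: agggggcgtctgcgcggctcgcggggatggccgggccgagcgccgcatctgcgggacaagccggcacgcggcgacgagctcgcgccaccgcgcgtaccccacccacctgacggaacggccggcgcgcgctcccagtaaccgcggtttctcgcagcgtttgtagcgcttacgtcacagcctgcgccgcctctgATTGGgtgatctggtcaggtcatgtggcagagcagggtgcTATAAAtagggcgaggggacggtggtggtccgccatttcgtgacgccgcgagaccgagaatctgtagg
Srsf10: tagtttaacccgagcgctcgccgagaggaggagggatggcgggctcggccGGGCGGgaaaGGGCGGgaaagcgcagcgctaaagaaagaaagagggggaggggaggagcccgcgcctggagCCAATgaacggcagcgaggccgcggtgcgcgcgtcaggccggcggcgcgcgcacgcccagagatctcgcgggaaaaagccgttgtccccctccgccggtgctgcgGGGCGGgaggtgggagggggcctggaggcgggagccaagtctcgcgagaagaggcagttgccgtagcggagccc
Srsf5: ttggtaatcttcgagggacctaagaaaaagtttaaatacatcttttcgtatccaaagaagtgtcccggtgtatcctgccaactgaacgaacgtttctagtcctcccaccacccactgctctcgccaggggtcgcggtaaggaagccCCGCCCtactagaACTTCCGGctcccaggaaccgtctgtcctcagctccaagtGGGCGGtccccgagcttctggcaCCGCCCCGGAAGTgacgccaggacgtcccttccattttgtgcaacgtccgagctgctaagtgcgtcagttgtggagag

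The motifs searched were the CCAAT box (CCAAT), the GC box (GGGCGG), the E-box (CACGTG), the NRF1 core (GCATGCGC), the ETS site (CCGGAAGT), the cAMP response element (TGACGTCA), the TATA box (TATAAA) and the EBF1 core (CCCNNGGG). A GC box and an ETS site overlap in the Srsf5 window, and 2 GC boxes overlap in that of Srsf2. A member was counted if any of its windows held the motif, whereas the percentages are of single windows. A CCAAT box was found for 4 members, Srsf1, Srsf2, Srsf3 and Srsf10, against 37.4% of all 32851 windows. Its first base lay at position -82 from the start site in Srsf2, -58 in Srsf3, -129 in Srsf10 and -3 in Srsf1. The TATA box letters were found in Srsf2 and Srsf3 only among the members, at positions -29 and -18, against 13.6% of windows. A GC box was present for 9 of 10 members (35.7% of windows), all but Srsf3, and an ETS site for Srsf4, Srsf5 and Srsf11 (3.89% of windows). The EBF1 core was found for Srsf6, Srsf9 and Srsf11 (13.7% of windows) and the NRF1 core for Srsf7 and Srsf11 (2.71% of windows). In Srsf11 the ETS site and the NRF1 core were in a different window from the EBF1 core. The E-box (7.15% of windows) and the cAMP response element (1.79%) had no match among the members. The windows were rich in G and C, 69.3% in Srsf2, 68.3% in Srsf3, 71.3% in Srsf10 and 56.0% in Srsf5, against a median of 52.7% over all windows. These matches describe the letters in the windows and nothing about which factors bind there; the motifs were chosen with the fold changes known.

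Srsf2, Srsf3 and Srsf10 fell in KO, and no member rose. The other 7 did not pass the threshold of an adjusted p under 0.05 in edgeR's quasi-likelihood test over all 14140 genes tested. The median log2 fold change of the 10 members was -0.38, against 0.02 over all genes tested. Of all genes tested, 6.78% passed, 3.01% lower and 3.77% higher in KO. Among the 4062 genes with a mean of at least 50 CPM, 7.02% were lower, 3.74% higher and the median was -0.12; 8 members are in that range, of which 3 fell. Both KO libraries lay below both WT libraries for 7 of 10 members, as they did for 27.6% of all genes. At 50 CPM or more this held for 6 of 8 members and for 42.7% of genes. These shares are given as a description, because the members were chosen with results of these data known. In bulk RNA, fewer cells of a type that expresses a gene and less of its RNA per cell cannot be told apart.

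**Figure D1:**
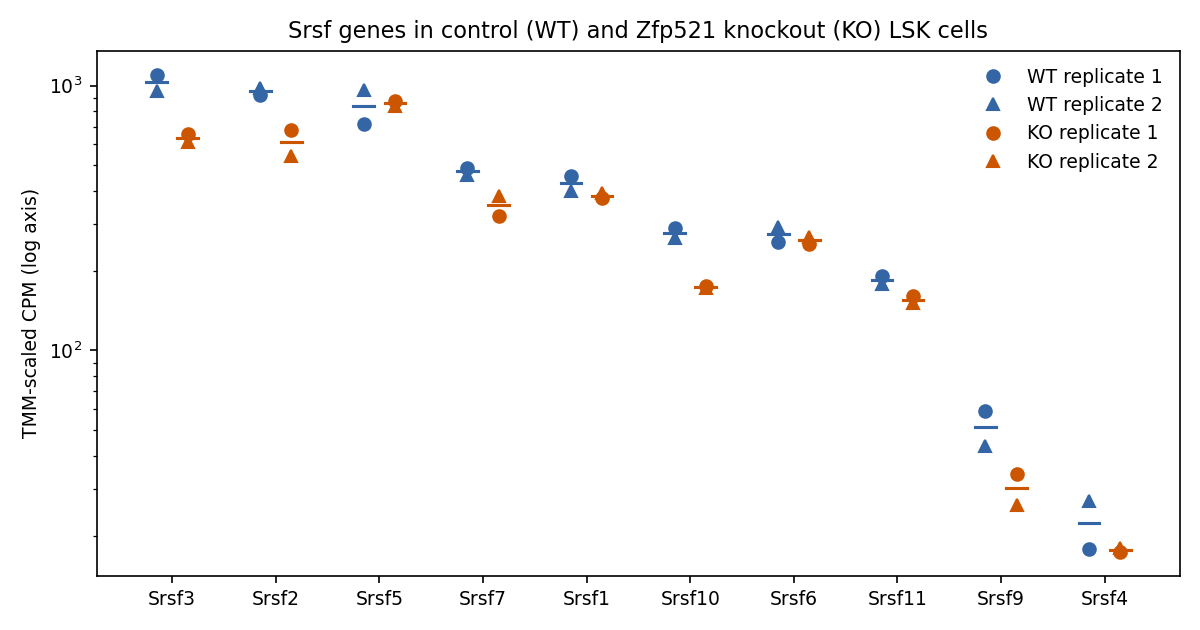
TMM-scaled CPM (vertical log axis) of the 10 Srsf genes, ordered by their WT mean; circles are replicate 1, triangles replicate 2, and short lines are group means. The WT and KO points are separate for 7 genes, among them Srsf3, Srsf2 and Srsf10, and overlap for Srsf4, Srsf5 and Srsf6.

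Srsf3, the smallest SR protein, shuttles between nucleus and cytoplasm and acts in splicing, polyadenylation site choice and mRNA export. It was measured at 1100 and 958 CPM in the WT libraries against 659 and 612 CPM in the KO libraries, so both KO libraries lay well below both WT libraries. Its log2 fold change was -0.70 (SE 0.14, 95% interval -1.0 to -0.39, adjusted p = 0.0153), a 1.62-fold lower level. Srsf3 (ENSMUSG00000071172.13) lies at 29032628 to 29043373 on the plus strand of chromosome 17 in mm10, and its exons overlap no other annotated gene. The call was kept when WT replicate 2 (adjusted p = 0.0472) or either KO library was left out, and lost without WT replicate 1 (log2 fold change -0.60, adjusted p = 0.167).

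Srsf7 and Srsf1 also shuttle and serve as adaptors for the mRNA export machinery; Srsf7 carries a zinc knuckle next to its RNA recognition motif. Srsf7 was measured at 489 and 459 CPM in the WT libraries against 323 and 384 CPM in the KO libraries, without overlap. Its log2 fold change of -0.42 (SE 0.14, 95% interval -0.74 to -0.11) missed the adjusted threshold (adjusted p = 0.0988), and passed it without KO replicate 2 (-0.56, adjusted p = 0.0312). Srsf1, the founding member of the family, was measured at 456 and 401 CPM in the WT libraries against 377 and 392 CPM in the KO libraries. These groups were separated by a gap smaller than the spread between the WT libraries, and the log2 fold change was -0.16 (95% interval -0.46 to 0.15, adjusted p = 0.521). The interval of Srsf1 reaches no further down than a level 0.725 times that of WT.

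Srsf2 stays in the nucleus, marks nuclear speckles and also acts in the release of paused RNA polymerase. It was measured at 922 and 980 CPM in the WT libraries against 679 and 542 CPM in the KO libraries, with no overlap and a wider spread in KO than in WT. The log2 fold change was -0.64 (SE 0.15, 95% interval -0.96 to -0.32, adjusted p = 0.0278), a 1.56-fold lower level. With KO replicate 1 left out it passed the threshold (-0.82, adjusted p = 0.00210). It missed it when WT replicate 1 (-0.69, adjusted p = 0.120) or WT replicate 2 (-0.61, adjusted p = 0.155) was left out, and likewise for KO replicate 2 (-0.49, adjusted p = 0.0649). Srsf2 (ENSMUSG00000034120.18, chromosome 11, 116849901 to 116853094, minus strand, mm10) shares 748 of its 2958 exonic bases with the opposite-strand genes Mettl23 and Mfsd11. The labels do not say whether the counting used strand, and reads in the shared bases may have been assigned to either gene or to none. Mfsd11 was measured at 20.0 and 19.6 CPM in the WT libraries against 27.4 and 30.4 CPM in the KO libraries, with a log2 fold change of 0.54 (adjusted p = 0.194), and Mettl23 at 14.5 ± 4.07 and 19.0 ± 3.50 CPM (SD, n = 2 each; adjusted p = 0.465). The part of shared bases in the Srsf2 value was not tested.

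Srsf10 differs from the other members in function: its dephosphorylated form, made in mitosis and after heat shock, represses splicing. It was measured at 290 and 267 CPM in the WT libraries against 175 and 172 CPM in the KO libraries, with no overlap. Its log2 fold change was -0.68 (SE 0.14, 95% interval -1.0 to -0.37, adjusted p = 0.0193), a 1.61-fold lower level. It lost the call without WT replicate 1 (-0.63, adjusted p = 0.214) and without WT replicate 2 (-0.76, adjusted p = 0.0931), and kept it without either KO library. Srsf10 (ENSMUSG00000028676.17) lies at 135855747 to 135869908 on the plus strand of chromosome 4 in mm10, with no exonic overlap. Srsf11, a related protein that interacts with the U2 auxiliary factor, was measured at 190 and 178 CPM in the WT libraries against 160 and 150 CPM in the KO libraries. Its values did not overlap, but the difference missed the threshold (log2 fold change -0.25, 95% interval -0.57 to 0.08, adjusted p = 0.329).

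Srsf4, Srsf5, Srsf6 and Srsf9, like Srsf1, have an additional, atypical RNA recognition motif. Srsf9 was measured at 59.1 and 43.5 CPM in the WT libraries against 34.2 and 26.1 CPM in the KO libraries, without overlap. Its log2 fold change of -0.77 (SE 0.24, 95% interval -1.28 to -0.25) was the lowest of the family but missed the threshold (adjusted p = 0.0735). It passed the threshold without KO replicate 1 (-0.98, adjusted p = 0.0161), and the libraries of each genotype differed widely for this gene. Srsf5, which is known to respond to insulin and to growth stimulation, was measured at 713 and 964 CPM in the WT libraries against 876 and 839 CPM in the KO libraries. Both KO values lay between the WT values, and the log2 fold change was 0.03 (95% interval -0.31 to 0.38, adjusted p = 0.925). Its sign turned when WT replicate 1 (-0.17) or KO replicate 1 (-0.01) was left out. Srsf6 was measured at 258 and 292 CPM in the WT libraries against 252 and 269 CPM in the KO libraries, with overlap (log2 fold change -0.08, 95% interval -0.40 to 0.24, adjusted p = 0.784). For Srsf5 and Srsf6, and also for Srsf1 and Srsf11, the intervals exclude a fall as large as the estimates for Srsf2, Srsf3 and Srsf10. Whether the members differ in their response was not tested.

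Srsf4 had the fewest reads of the 10 members, from 354 to 670 counts per library. It was measured at 17.8 and 27.0 CPM in the WT libraries against 17.4 and 18.0 CPM in the KO libraries, so WT replicate 2 was high and the other libraries were alike (log2 fold change -0.34, 95% interval -0.97 to 0.29, adjusted p = 0.494). Without WT replicate 2 the log2 fold change was -0.03. In the annotation 1532 of its 3561 exonic bases, 43.0%, are shared with Gm12992, a noncoding gene on the opposite strand. Gm12992 was measured at 2.37 and 3.30 CPM in the WT libraries against 9.45 and 8.18 CPM in the KO libraries, with a log2 fold change of 1.64 (SE 0.44, adjusted p = 0.0481), and leaving out WT replicate 1, WT replicate 2 or KO replicate 1 ended the call (adjusted p = 0.304, 0.129 and 0.0626). The call was also lost with the size factors of DESeq2 in edgeR (adjusted p = 0.0503). The value of Srsf4 is therefore uncertain. Whether reads of processed pseudogenes were counted for any of the members was not examined.

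**Figure D2:**
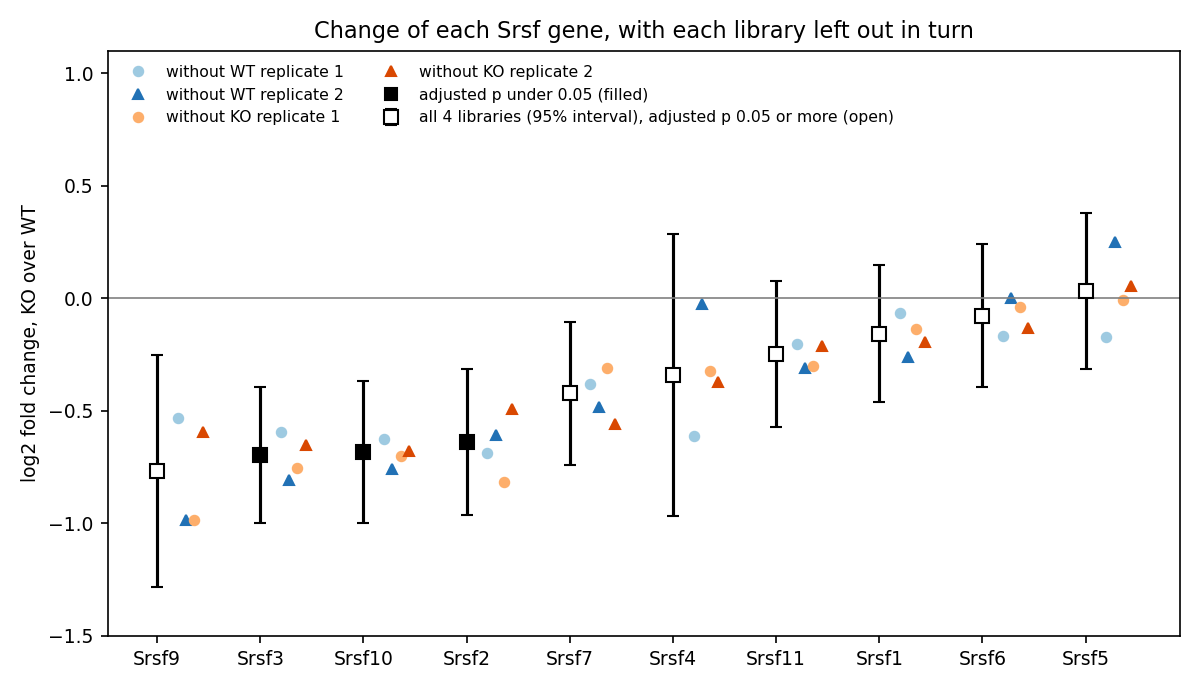
Log2 fold change of KO over WT for each Srsf gene (vertical axis): squares with 95% intervals are the fit on all 4 libraries, filled where the adjusted p was under 0.05, and small symbols are the fits without each library. Srsf3, Srsf10 and Srsf2 are filled, and all 4 small symbols of each lie below 0; the symbols of Srsf5 lie on both sides of 0.

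The number of members lower in KO depended on which libraries were used. It was 3 with all libraries, 0 when WT replicate 1 was left out and 1 (Srsf3) when WT replicate 2 was. Leaving out a KO library also changed which members passed. The number of genes lower over all genes tested moved with the library left out too. The number of members in these fits is thus not read as a result about the family. Over all genes the number lower fell from 425 to 95 without WT replicate 1 and to 101 without WT replicate 2. The median of the members moved less, from -0.32 without KO replicate 1 to -0.46 without WT replicate 1. Srsf2, Srsf3 and Srsf10 had negative fold changes in all 11 alternatives, and Srsf9, Srsf7, Srsf4, Srsf11 and Srsf1 did as well without being called in the fit on all libraries.

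Per kilobase of exon, Srsf2 had the highest level of the members in WT, 322 ± 14.0 CPM per kilobase, and Srsf4 the lowest, 6.29 ± 1.82 (SD, n = 2), a ratio of 51.1. Between them in WT came Srsf5 (210 ± 44.5), Srsf7 (134 ± 6.07), Srsf3 (130 ± 12.8), Srsf1 (75.1 ± 6.79), Srsf6 (57.1 ± 5.02), Srsf10 (39.8 ± 2.36), Srsf9 (31.0 ± 6.68) and Srsf11 (21.8 ± 0.993). Srsf7 and Srsf3 overlapped in WT and thus did not differ in level beyond their spread, while the other neighbours in the order were separate. In KO, Srsf5 (215 ± 6.47) and Srsf2 (206 ± 32.6) overlapped at the top, and Srsf11 (18.4 ± 0.812) overlapped with Srsf9 (18.2 ± 3.47). The order rests on the lengths used. With the longest coding transcript in place of all exons, Srsf5 came first in WT (535 ± 113), with values that overlapped those of Srsf2 (501 ± 21.9). Srsf3 came next (393 ± 38.5), apart from Srsf7 (197 ± 8.96), so the overlap of Srsf7 and Srsf3 holds only for the length of all exons. By the coding length Srsf1 (80.0 ± 7.23), Srsf6 (77.9 ± 6.84) and Srsf10 (74.2 ± 4.39) overlapped in WT. Srsf11 (59.3 ± 2.70) then came above Srsf9 (44.1 ± 9.50). The separation of Srsf1, Srsf6 and Srsf10 and the place of Srsf9 above Srsf11 thus also hold only for all exons. The union of Srsf3 exons spans 7899 bases and its longest coding transcript 2618.

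Summed over the 10 members, the level was 4496 and 4570 CPM in WT and 3553 and 3405 CPM in KO, 23.3% lower on average in KO. Srsf2 and Srsf3 together made up 45.0% and 42.4% of the summed CPM in WT and 37.7% and 33.9% in KO. Srsf5 made up 15.9% and 21.1% in WT and 24.7% and 24.6% in KO, where it was the most abundant member by reads. Srsf1 made up 10.1% and 8.79% in WT and 10.6% and 11.5% in KO, and Srsf6 5.73% and 6.39% in WT and 7.10% and 7.89% in KO. The share of Srsf11 was 4.23% and 3.90% in WT and 4.51% and 4.42% in KO. For these 3 genes both KO shares were above both WT shares, while those of Srsf7 overlapped, with both WT shares between the KO shares of 9.10% and 11.3%. No test was made of the shares. These shares are of reads, not corrected for length, and as parts of a whole they are not independent of each other.

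**Figure D3:**
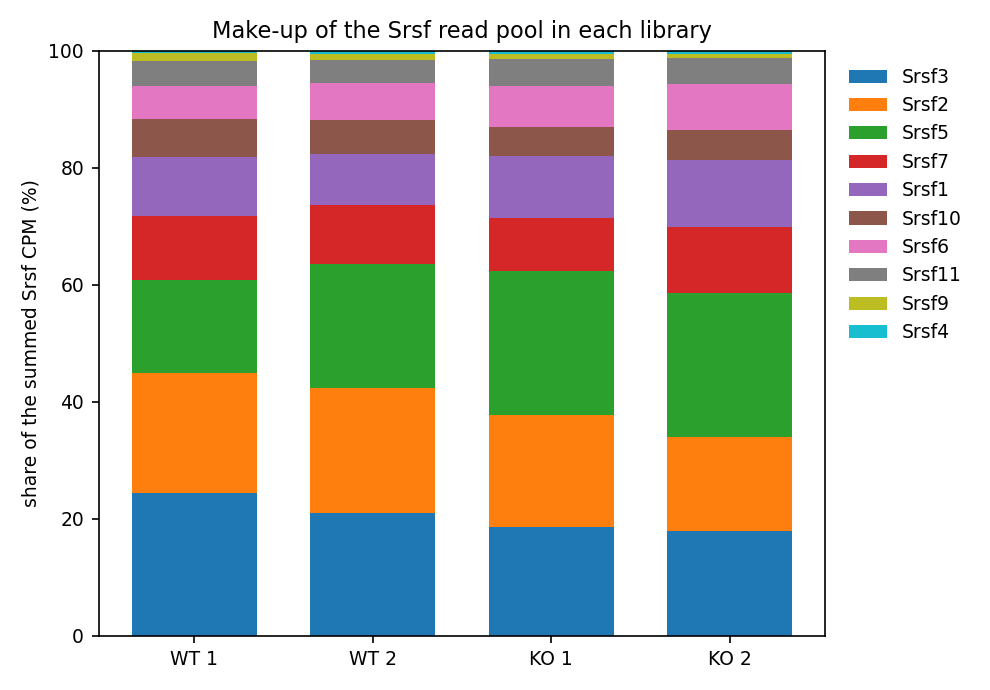
Share of each Srsf gene in the summed TMM-scaled CPM of the family (vertical axis, percent), for each WT and KO library. Srsf3 and Srsf2 together make up 45.0% and 42.4% in WT and 37.7% and 33.9% in KO, and the Srsf5 band is widest in KO.

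The annotation lists at least 1 transcript subject to NMD for 9 of the 10 members, all but Srsf10, against 20.8% of protein-coding genes. Transcripts with a retained intron are listed for 8 of 10, all but Srsf9 and Srsf10, against 41.5%. Srsf11 has the most, with 11 retained intron and 3 NMD transcripts among 19, while Srsf3 has 4 and 2 among 10. The counts are one number per gene, so they do not show how the reads of a member were divided between coding transcripts and those sent to decay.

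Of 10 kinases and import factors that act on SR proteins, none was lower and none higher in edgeR with the default filter on low counts and no replicate block, with 0 lower and 1 higher at an unadjusted p under 0.05, 0 lower and 1 higher in DESeq2, and a median log2 fold change of 0.00. The gene higher in DESeq2 was Clk1, a nuclear kinase of SR proteins, at 258 and 276 CPM in WT and at 319 and 536 CPM in KO. It was above both WT values in both KO libraries, far more in KO replicate 2 than in KO replicate 1 (log2 fold change 0.68, edgeR adjusted p = 0.0734). Clk1 passed in edgeR with no filter on low counts (adjusted p = 0.000758), with the replicate block (0.000174) and without KO replicate 1 (0.000275), where 2 of the 10 genes were higher. Without KO replicate 2 its log2 fold change was 0.25 (adjusted p = 0.409). Srpk2 (-0.23), Dyrk1a (-0.21) and Clk2 (0.42) had adjusted p-values of 0.378 to 0.440. Of 21 SR-related proteins, which include Srsf12, splicing coactivators and both subunits of U2AF, 1 was lower and none higher (median -0.14). This count is near the 3.01% lower among all genes tested and the 7.02% among genes of at least 50 CPM. The gene lower was Tra2b, an RS domain protein that activates exons alongside the SR proteins. Tra2b fell from 335 and 250 CPM to 152 and 140 CPM (log2 fold change -1.0, SE 0.17, adjusted p = 0.0077), but this call was lost when WT replicate 1 was left out (adjusted p = 0.109). The scaffold of nuclear speckles Srrm2 had a positive fold change (0.34, adjusted p = 0.153), as did Luc7l2 of the U1 particle (0.34, adjusted p = 0.184), while Rnps1 had a negative one (-0.52, adjusted p = 0.0736).

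The hnRNP proteins often oppose SR proteins at splice sites, and their list had the same median as the Srsf genes, -0.38. Of 26 members 4 fell and none rose, beside 3.01% lower among all genes tested and 7.02% among genes of at least 50 CPM. A negative fold change was found for 24, as for 48.8% and 63.2% of those genes. Pcbp1, which binds poly(C), fell from 157 ± 19.1 to 82.4 ± 27.7 CPM (log2 fold change -0.93, adjusted p = 0.0293). Hnrnpc, which binds uridine tracts, fell from 216 ± 32.3 to 124 ± 4.18 CPM (-0.80, adjusted p = 0.0155). Hnrnpu, a nuclear scaffold protein, fell from 1000 ± 149 to 598 ± 61.7 CPM (-0.74, adjusted p = 0.0169), and Ptbp1, the polypyrimidine tract repressor, from 790 ± 8.6 to 507 ± 64.0 CPM (-0.64, adjusted p = 0.0237; SD, n = 2 each). The number of lower hnRNP genes depended on which library was left out, as it did over all genes tested.

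Among 38 proteins of the spliceosomal particles 36 had a negative fold change, 3 fell and 1 rose, with a median of -0.45. The 3 that fell stand beside 3.01% lower among all genes tested and 7.02% among genes of at least 50 CPM, so this count is near the latter background, and negative fold changes are to be read against the same 48.8% and 63.2%. Snrpf, a ring protein of the Sm core, fell from 21.1 ± 2.14 to 9.87 ± 0.743 CPM (log2 fold change -1.10, adjusted p = 0.0451). Sf3b4 of the U2 particle (-0.99, adjusted p = 0.0356) and Snrpa of the U1 particle (-0.73, adjusted p = 0.0372) fell too. Zrsr1, an imprinted relative of the small U2AF subunit, rose from 13.9 ± 0.840 to 31.0 ± 5.50 CPM (1.15, adjusted p = 0.0266). None of these 4 passed without WT replicate 1, WT replicate 2 or KO replicate 2. How many members were lower depended on the library left out, as it did over all genes tested. Of 25 other splicing regulators tested 2 fell and none rose (median -0.21), again near the 7.02% lower among genes of at least 50 CPM. These were Nono (-0.56, adjusted p = 0.0321), a paraspeckle protein, and Mbnl3 (-0.61, adjusted p = 0.0488), of the muscleblind family. Neither passed without either WT library, and Mbnl3 also missed the threshold without KO replicate 2. Rbm10 (-0.71) and Elavl1 (-0.56) missed it, with adjusted p-values of 0.0536 and 0.0571. Of 15 exon junction complex and NMD genes, Eif4a3, the helicase that anchors the complex, fell from 116 ± 13.9 to 63.2 ± 8.26 CPM (-0.88, adjusted p = 0.0166) and none rose (median -0.17); without WT replicate 1 and WT replicate 2 its adjusted p was 0.202 and 0.058. Magoh, Rbm8a and Magohb of the same complex had fold changes of -0.65, -0.54 and -0.87 with adjusted p-values of 0.0792 to 0.169. The count of 1 lower among these 15 genes is near the same background of 7.02% too.

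**Figure D4:**
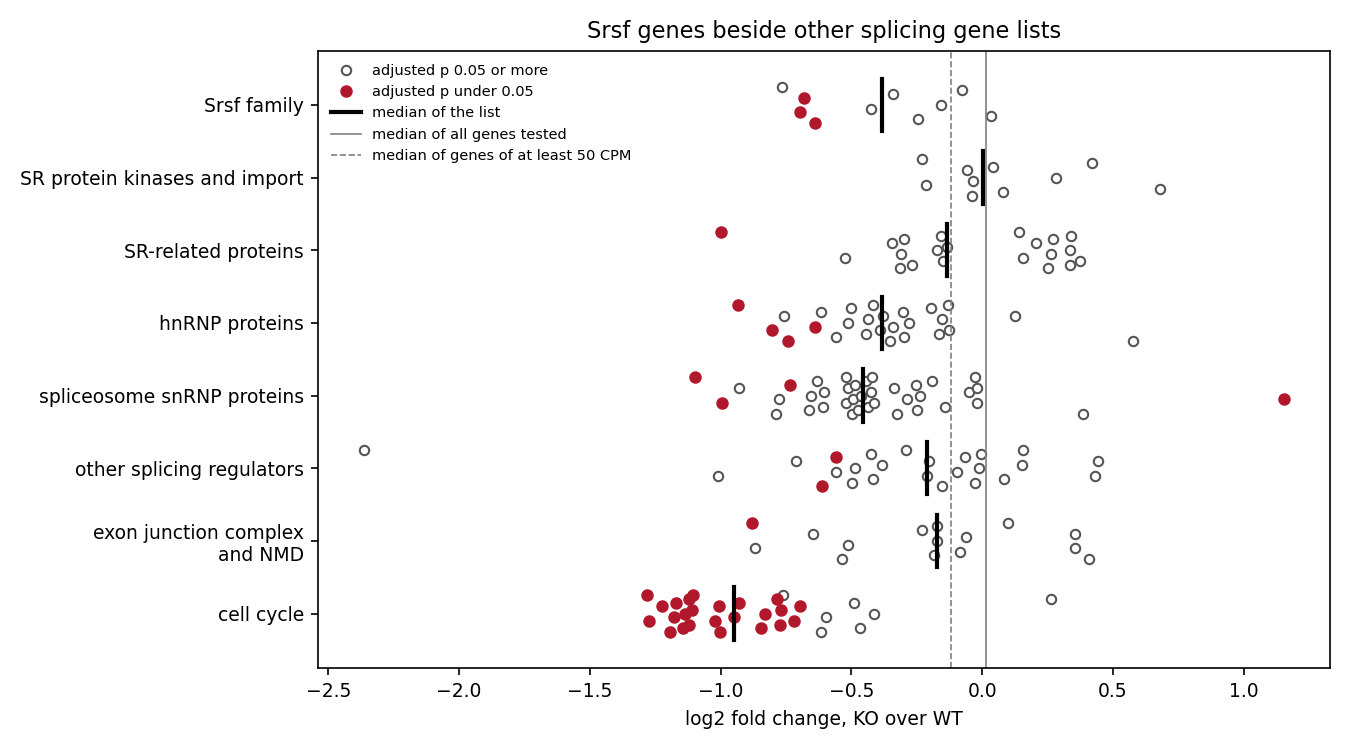
Log2 fold change of KO over WT (horizontal axis) for each tested gene of the Srsf family, 6 other splicing lists and the cell cycle list; filled points had an adjusted p under 0.05, black bars are list medians, and grey lines are the medians of all genes (0.02) and of genes of at least 50 CPM (-0.12). The medians of the Srsf and hnRNP lists are at -0.38, that of the kinases at 0.00 and that of the cell cycle list at -0.95.

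Lists of cell cycle genes and of markers of other cell types also differed between the genotypes, in both directions. The counts below stand beside 3.01% lower and 3.77% higher in KO among all genes tested. Of 31 cell cycle genes 24 were lower and none higher in KO, with a median of -0.95, and their summed level was 7175 and 7046 CPM in WT and 4191 and 3983 CPM in KO. Of 11 B lineage markers 9 were lower, with sums of 507 and 594 CPM in WT and 119 and 89.6 CPM in KO. Of 10 dendritic cell markers 7 were higher (136 and 136 CPM in WT, 1045 and 858 CPM in KO), as were 7 of 9 mast cell and basophil markers (22.5 and 19.2 CPM in WT, 225 and 130 CPM in KO). Of 10 neutrophil markers tested 5 were higher and 1 lower, of 8 monocyte and macrophage markers 3 were higher, and of 8 erythroid and megakaryocyte markers tested 2 were higher. None of 6 T and NK cell markers tested passed, with sums of 119 and 122 CPM in WT and 103 and 101 CPM in KO. None of 7 stromal and endothelial markers passed either, but WT replicate 2 stood apart, with a sum of 214 CPM against 69.8 CPM in WT replicate 1 and 133 and 93.9 CPM in KO. In that library the collagen genes Col1a1 and Col1a2 were at 56.1 and 65.9 CPM, against 0.102 to 2.62 CPM and 3.13 to 9.72 CPM in the other libraries. The part of these shifts in the values of the Srsf genes was not tested.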

How the data were processed

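RNA of sorted LSK cells was sequenced in 2 WT and 2 KO libraries. The kit was NuGEN Ovation Ultralow, with an input of 20 ng and 76 sequencing cycles, per the labels' protocols. The authors deposited raw counts per gene symbol. Per the submitters' processing notes HTSeq 0.8.0, Picard 2.9.4, SAMtools 1.5 and TopHat2 2.1.1 were used with the build mm10. No annotation, strand setting or duplicate handling is given in the sources used here.

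From these counts, TMM-scaled CPM, fold changes (KO over WT), 95% intervals and Benjamini-Hochberg adjusted p-values (threshold 0.05) were computed with edgeR 4.0.16 in R 4.3.3: filterByExpr (minimum count 10, minimum total 15), then the quasi-likelihood test with no covariate over 14140 genes. The biological coefficient of variation was 0.266. A floor of 3 counts is 0.108 to 0.152 CPM and covers counting error only. The edgeR step was run on simulated data with changes larger than those called among the members. Its recovery of changes of the members' size was not tested. Positions, exonic lengths and transcript classes came from GENCODE M21 on the same build, and promoters from RefSeq. The planned protein comparison was not made.

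The members and gene lists were chosen with earlier results of these data known. Named are all 10 members, genes overlapping them with values, Zfp521, and in each splicing list the 4 genes with the smallest p. Added after their values were seen were Kit, Ly6a, Cd34, Cd48, Flt3, Col1a1, Col1a2, Xist, Rn45s and Srsf12. So were the T and NK cell markers Cd3d, Cd3e, Cd3g, Cd4, Cd8a, Lck, Nkg7, Klrb1c and Ncr1. Alternatives were other scaling factors, other filters, DESeq2 1.42.0, the replicate number as a block and leaving out each library.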

Additional observations from a re-analysis of the deposited data

How the results depend on the processing

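Over 11 alternatives for each of the 10 members, 97 of 110 results stayed on their side of the threshold, 6 lost the call, all when a library was left out, and 7 gained it (Srsf7 and Srsf9). No called fold change turned sign; of the members not called, Srsf5 turned sign in 2 fits and Srsf6 in 1, with upper quartile factors. The number of members lower was 3, and 5 with no filter on low counts and with the replicate block (Srsf7 and Srsf9 added); leaving out each library gave 0 to 4. With DESeq2 it was 4. Over all genes, 533 were higher and 425 lower; the numbers were 1056 and 987 with no filter, 878 and 792 with DESeq2, and 1312 and 1314 with the replicate block. Leaving out each library gave 160 to 997 higher and 95 to 1161 lower genes. The cause of these differences was not tested, and the fits without a library also held fewer libraries. With upper quartile factors the median over all genes was 0.10 in place of 0.02 and 289 genes were lower, with Srsf2, Srsf3 and Srsf10 at -0.56, -0.61 and -0.60 and still called, while Nono, Mbnl3, Snrpa and Snrpf lost the call (adjusted p = 0.0558, 0.0758, 0.0546 and 0.0593); with DESeq2's size factors Mbnl3 and Gm12992 lost it (adjusted p = 0.0517 and 0.0503). The labels' replicate numbers do not say that libraries were paired; with 2 pairs, deviations of libraries of the same number had a correlation of 0.105 over genes. With 1 library left in a group, that library is assumed to vary like those of the other group. With 2 libraries per group, intervals of the members span 0.605 to 1.25 on the log2 scale, so smaller changes may have been missed.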
